A study of Mus musculus with 44 samples.

Results

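The libraries compared here came from sedentary Emx1-NuTRAP mice and differed in how the ribosome-bound RNA was isolated. In 4 libraries the RNA and the nuclei of the same tissue were isolated together (simultaneous isolation, SIT), and in 6 libraries the RNA was isolated from 1 hippocampus alone while the other hippocampus went to a separate nuclear isolation. Membership was set by the sedentary label and the isolation label only. The 10 libraries belong to 20 Emx1-NuTRAP libraries, in a series of 44 samples that also holds wildtype mice.

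The study asked how exercise early in life changes the hippocampal transcriptome and chromatin of Emx1-expressing cells, and it set up the simultaneous isolation for that purpose. The mice were males that carried Emx1-Cre and the NuTRAP reporter, in which Cre switches on a GFP-tagged ribosomal protein L10a and a biotinylated tag on the nuclear envelope. From postnatal day 21 to day 41 they had no wheel, while the mice of the exercised groups ran. The RNA was translating ribosome affinity purification (TRAP) RNA, in other words RNA pulled down with anti-GFP beads, and libraries were made from polyadenylated RNA.

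For SIT both hippocampi of a mouse were cut up and passed through needles in a low-detergent sucrose buffer with cycloheximide, the nuclei were taken off on streptavidin beads, and the remaining supernatant was brought to TRAP conditions, cleared at high speed and put on the anti-GFP beads. For separate isolation 1 hippocampus was homogenized with a motorized pestle in detergent-containing TRAP buffer with cycloheximide, cleared at high speed, precleared on bare beads and then put on the anti-GFP beads. All SIT mice were numbered NT and all separate mice TG, so that isolation, amount of tissue and mouse number series cannot be told apart in the sedentary groups. The 3 separate libraries each from left and right hippocampi were taken as 1 group of 6. Each mouse gave 1 library, and the Emx1-Cre driver marks every cell whose lineage has expressed Emx1, which in this tissue is mainly excitatory neurons.

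As background, an RNA reaches the beads specifically when it is held by a tagged cytosolic ribosome. Mitochondrial messages are translated by the mitochondrion's own ribosomes, which carry no tag, and nuclear-retained RNAs such as Malat1 meet few ribosomes at all, so both are commonly read as measures of untagged RNA carried along. Neurons also ship a set of messages into dendrites, among them those for the postsynaptic scaffold, where they sit in granules or on polysomes near the synapse.

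Bc1, a short RNA polymerase III transcript of neurons that is carried into dendrites and takes part in translational control, had the largest difference of the genes singled out over all 10 libraries, and its sequence is shown because a poly(A)-selected library holds it although it is not a messenger RNA. It lies on the plus strand at chr7:144914470-144914637 (GRCm38), is annotated as 1 transcript of 168 bases (GENCODE), and holds 41.7% A. The capitals mark its run of 23 A, at bases 77 to 99.
Bc1: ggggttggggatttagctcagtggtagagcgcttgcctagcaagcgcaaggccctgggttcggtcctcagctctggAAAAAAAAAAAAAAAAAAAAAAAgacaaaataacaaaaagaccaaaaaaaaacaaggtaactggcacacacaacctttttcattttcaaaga

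Bc1 had 11.3 and 4.70 CPM (counts scaled to a common library size) in the SIT libraries of mice NT6.305 and NT6.306, 230 CPM in that of NT7.2.3 and 509 CPM in that of NT7.2.4. Among separate libraries the values were 1.45 at the lowest, a median of 2.37 and 3.48 at the highest. Every SIT library was thus above every separate one, but by very different amounts. The absence of overlap was a condition for singling Bc1 out, as was a mean of at least 5 CPM. With means of 189 CPM in SIT and 2.40 in the separate libraries, it met the latter through SIT alone. The log2 difference, SIT minus separate as for all differences below, was 6.3 (SE 1.03, adjusted p = 0.00306), and 1.74 (SE 0.34, adjusted p = 0.00643) without the NT7.2 libraries. Whether the A run bears on this was not tested.

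The libraries held 45895097 to 60179728 counts assigned to genes, so that 3 counts, the limit that a count of 0 allows, came to 0.0517 to 0.0653 CPM. The 2 libraries of NT7.2 mice stood apart from the other 8: on the first principal component, which held 62.5% of the variance of the 2000 most variable genes, they lay at 51.5 and 54.9 and the others between -19.4 and -4.64. The study left 2 sedentary libraries and 1 exercised library out of its own comparisons, which its text does not name. It describes them as outliers in a principal component analysis. For the 2 sedentary ones it reports much ribosomal and other non-messenger RNA, which it reads as a likely error of isolation. Results are therefore given over all 10 libraries and again with 2 SIT libraries, of mice NT6.305 and NT6.306, against the same 6 separate ones. The 2 fits share the separate libraries and are not independent. Slc17a7, the vesicular glutamate transporter of excitatory neurons, was at 2821 to 4305 CPM in all 10 libraries, whereas in the separate libraries Gad2, which makes GABA in interneurons, was at 2.36 to 7.46 CPM and the microglial receptor Cx3cr1 at 0.42 to 0.734 CPM.

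Of 18086 genes tested over all 10 libraries, 1113 were higher in SIT (6.15%) and 1148 were lower (6.35%) at an adjusted p under 0.05. Without NT7.2, 1028 of 18911 genes were higher (5.44%) and 1537 lower (8.13%). Of the genes called over all 10 libraries, 528 of the higher and 789 of the lower were called without NT7.2 as well. The median log2 difference of all genes tested was 0.00 over all 10 libraries and -0.01 without NT7.2, which is the value against which the classes below are read.

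The counts depended on single libraries. Over all 10 libraries they fell to 499 higher and 664 lower without NT7.2.4 and to 682 and 732 without TG9.1.2, and the higher count fell to 699 without TG7.3.4 and to 737 without TG7.3.3. In the fit without NT7.2, leaving out 1 of the NT6 libraries leaves a single SIT library that is assumed to vary like the others. That gave 112 higher and 320 lower without NT6.305, and 377 and 771 without NT6.306. Of the 65 genes given with values below, 49 were called over all 10 libraries and 38 of these were called whichever library was left out, and 44 were called without NT7.2, of which 23 were called whichever library was left out. Without NT6.305, among those named, mt-Co1, Bc1, Ppp1r9b, Slc1a2, Celsr1, C4b, Ccpg1, Snap25 and Eno2 lost the call they had without NT7.2 (adjusted p from 0.0502 for Snap25 to 0.21 for Bc1). Atp5b, Camk2a, Ddn, Aqp4, Syt1, Nrgn and Gad2 lost it without either of the NT6 libraries, and Fn1, Tm4sf1, Rpl4, Firre and Egr1 without these and at least 2 of the separate ones.

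**Figure D1:**
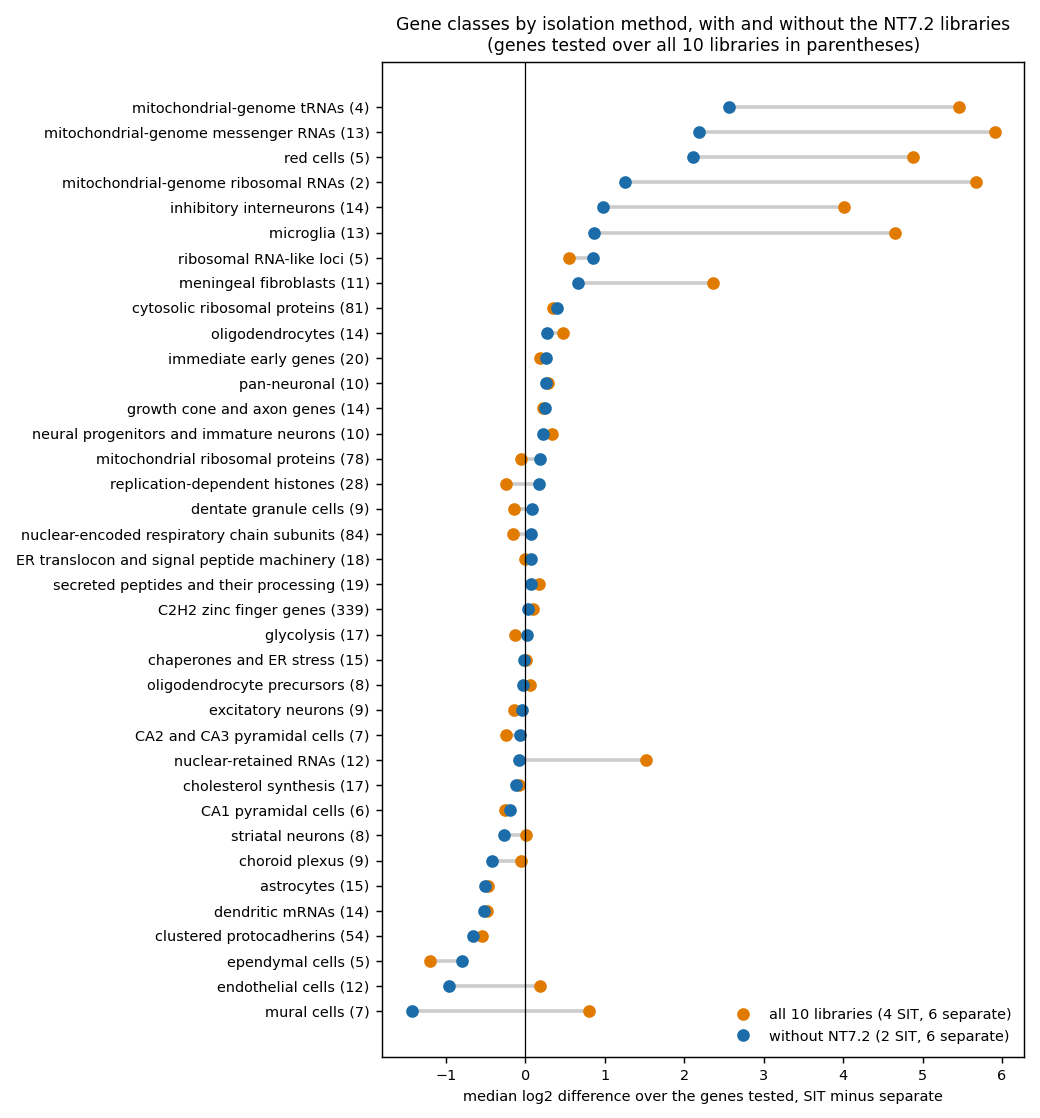
Median log2 difference of each gene class, SIT minus separate, over all 10 sedentary libraries (orange, 4 SIT and 6 separate) and without the NT7.2 libraries (blue, 2 SIT and 6 separate), with the number of genes tested over all 10 in parentheses. Mitochondrial and red cell genes lay above 0 in both (5.91 and 2.19 for the mitochondrial messenger RNAs), microglial and interneuron genes shortened from 4.66 to 0.87 and from 4.01 to 0.97, and dendritic mRNAs, clustered protocadherins and astrocyte genes lay below 0 in both.

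The messenger RNAs of the mitochondrial genome were higher in SIT, and by far the most so in the NT7.2 libraries. All 13 were called over all 10 libraries, with a median log2 difference of 5.91, and all 13 without NT7.2, with a median of 2.19. With the 4 SIT libraries set against the 3 left or the 3 right hippocampi alone, 0 of 13 passed, at medians of 5.90 and 5.96. Together they took 0.398% (95% Wilson interval 0.396 to 0.400) and 0.227% of the counts of NT6.305 and NT6.306, 7.87 and 8.73% of those of the NT7.2 mice, and 0.0616 to 0.0943% of those of the separate libraries. The intervals cover counting error only. The 3 sets of libraries did not overlap.

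mt-Nd4, a subunit of respiratory complex I (chrM:10167-11544), had 598 and 326 CPM in the NT6 libraries and 9248 and 10670 in the NT7.2 libraries. In the separate libraries it had 51.2, 72.4 and 98.7 CPM (lowest, median and highest). Its log2 difference was 6.15 (SE 0.83, adjusted p = 0.00132), and 2.65 (SE 0.20, adjusted p = 8.94e-05) without NT7.2. The cytochrome b message mt-Cytb (chrM:14145-15288) behaved alike, at 602 and 332 CPM in NT6, 11219 and 12684 in NT7.2 and 50.8 to 107 in the separate libraries, with log2 differences of 6.29 and 2.56.

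mt-Co1, the catalytic subunit of cytochrome c oxidase (chrM:5328-6872), differed less outside the NT7.2 libraries. It had 675 and 422 CPM in NT6, 25355 and 29009 in NT7.2 and 221 to 317 in the separate libraries, and its log2 difference was 5.73 over all 10 libraries and 1.07 (SE 0.15, adjusted p = 0.00147) without NT7.2. The make-up of the mitochondrial messages thereby differed between the 3 sets. mt-Co1 was 17.4 to 19.3% of their counts in NT6, 29.8 to 30.3% in NT7.2 and 29.2 to 36.8% in the separate libraries. mt-Nd4 was 14.9 to 15.4% in NT6, 10.9 to 11.2% in NT7.2 and 8.53 to 10.7% in the separate libraries, and mt-Cytb 15.2 to 15.5%, 13.2 to 13.3% and 8.46 to 11.5%. For mt-Co1 the NT7.2 libraries thus lay within the separate ones and the NT6 libraries apart from them, while for mt-Nd4 and mt-Cytb the NT6 libraries were highest, the separate ones lowest and the NT7.2 libraries between.

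**Figure D2:**
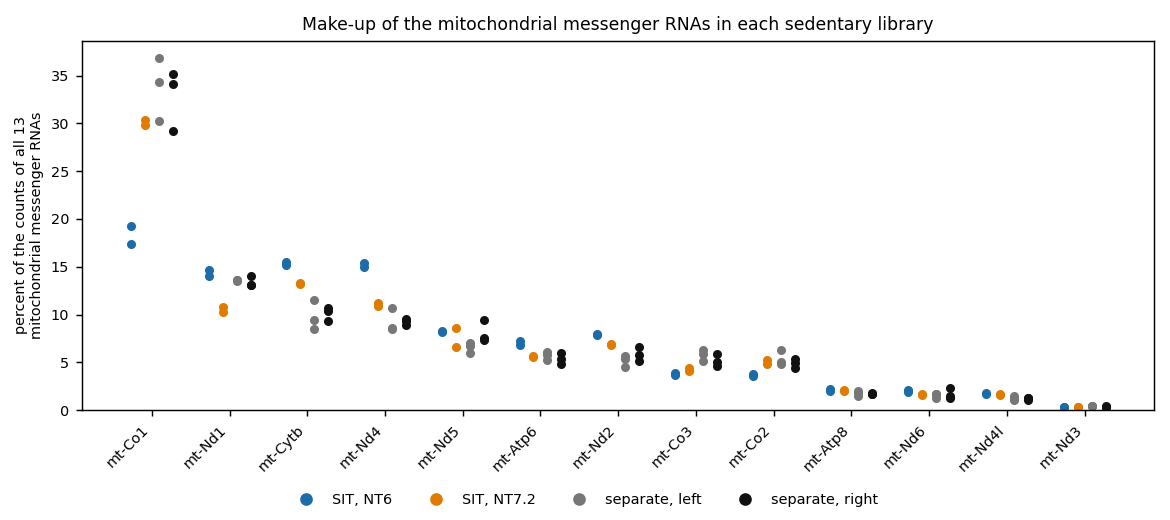
Share of each mitochondrial message among the counts of all 13, in percent, 1 point for each sedentary library. mt-Co1 was 17.4 and 19.3% in the NT6 libraries against 29.2 to 36.8% in the separate libraries, and mt-Nd4 and mt-Cytb were higher in NT6 than in every other library.

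Both mitochondrial ribosomal RNAs were higher in SIT as well. mt-Rnr1 had 103 and 70.7 CPM in NT6, 3257 and 4077 in NT7.2 and 32.0 to 42.3 in the separate libraries, with log2 differences of 5.69 and, without NT7.2, 1.27. mt-Rnr2 had log2 differences of 5.66 and 1.25. Of 22 mitochondrial tRNA genes 4 had enough counts to be tested, of which 4 were higher over all 10 libraries and 1, mt-Te (2.65), without NT7.2. Unprocessed pseudogenes held 2.03 to 2.30% of all counts of the NT7.2 libraries, 0.0729 to 0.116% in NT6 and 0.0323 to 0.0405% in the separate libraries. The 7 with the most counts lie side by side at chr1:24611535-24616197, a nuclear copy of mitochondrial sequence that shares reads with the mitochondrial genome, so that the split of counts between the copies is uncertain.

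The genes for mitochondrial proteins that are encoded in the nucleus and made on cytosolic ribosomes differed by far less. Of 84 respiratory chain subunits tested, 1 was higher and 5 were lower over all 10 libraries (median -0.15), and 4 were higher and 6 lower without NT7.2 (median 0.08), which is below the 12.5 and 13.6% of all genes called in either direction. Atp5b, the catalytic beta subunit of ATP synthase, had 770, 740, 738 and 691 CPM in the SIT libraries (in the order NT6.305, NT6.306, NT7.2.3, NT7.2.4, used throughout below) and 886 to 1012 in the separate ones, a log2 difference of -0.36 (SE 0.07, adjusted p = 0.00544). Of 78 mitochondrial ribosomal proteins, 2 were higher over all 10 libraries (median -0.05), and 13 without NT7.2, where the median was 0.19 and 71 were above 0. In exercised mice 9 of the 78 were higher (median 0.18), where 3.3% of all genes were. Of all genes 6.15% were higher over all 10 libraries and 5.44% without NT7.2. Their summed level was 2748 to 2912 CPM in NT6, 1940 to 2089 in NT7.2 and 2300 to 2635 in the separate libraries, so that NT6 lay above and NT7.2 below every separate library.

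**Figure D3:**
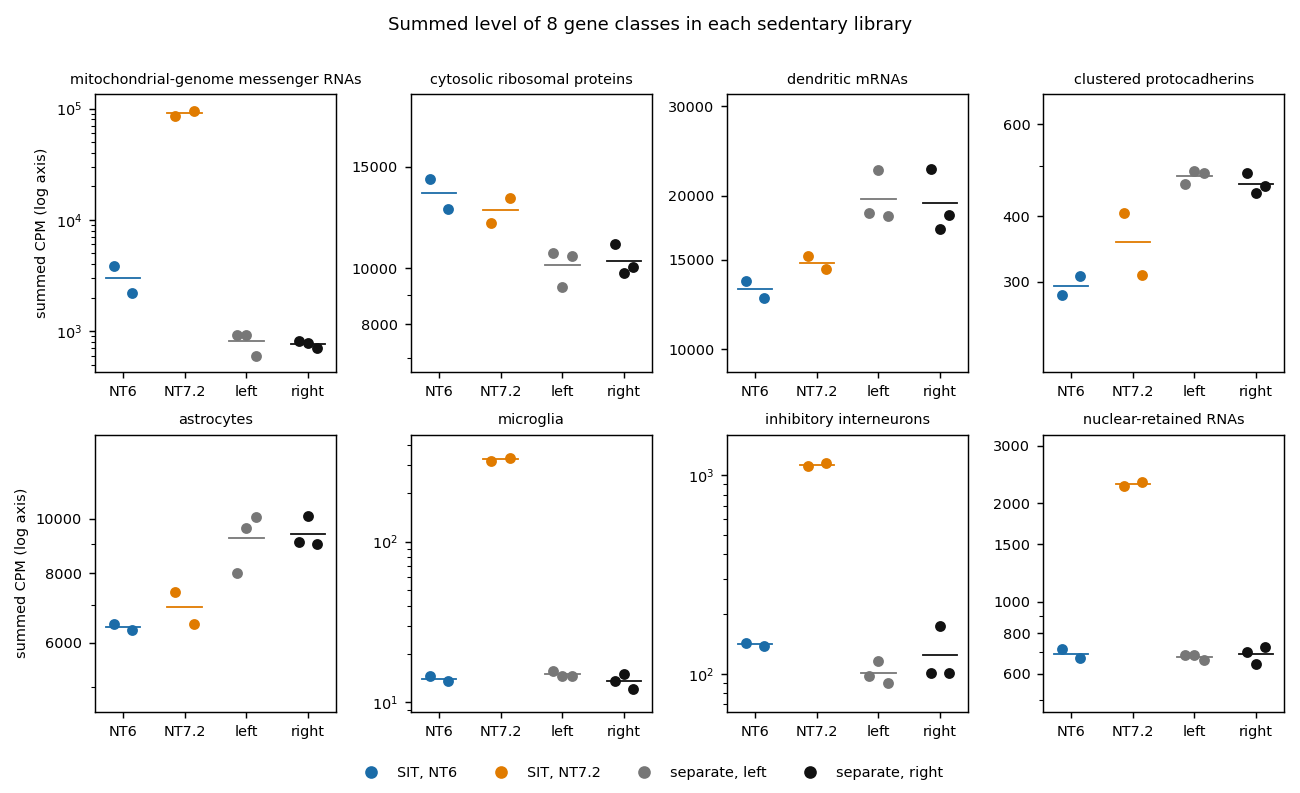
Summed CPM of gene classes in each sedentary library on log axes, with the SIT libraries split into NT6 and NT7.2 and the separate libraries into left and right hippocampus. Mitochondrial messages lay at 2187 to 3873 CPM in NT6, 84986 to 95641 in NT7.2 and 600 to 926 in the separate libraries. The ratio of the NT7.2 mean to the separate mean was 3.35 for the nuclear-retained sum, 22.7 for the microglial and 9.99 for the interneuron one.

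Among protein-coding genes, SIT without NT7.2 was higher for short coding sequences and lower for long ones. Genes were put in 5 bins of about equal number by coding length. In the bin with the shortest coding sequences (93 to 759 bases) the median log2 difference was 0.18, with 15.4% of genes higher and 1.54% lower. In the bin with the longest (2571 to 105639 bases) the median was -0.28, with 0.967% higher and 26.3% lower. The median changed in steps through the bins between, at 0.07, -0.02 and -0.10. The genes called higher had a median coding length of 747 bases and those called lower of 2724, against 1407 for all 15112 tested.

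Over all 10 libraries the same trend was smaller. The median log2 difference went from 0.04 in the shortest bin to -0.07 in the longest, with 10.3 and 3.00% of genes higher and 1.79 and 14.2% lower. Spearman's rank correlation between coding length and the log2 difference was -0.11 over 14830 genes, and -0.41 over 15112 genes without NT7.2. These are correlations across genes, which share libraries and are not independent replicates, and they are given as a description. Leaving out the mitochondrial-genome and cytosolic ribosomal protein genes gave -0.11 and -0.40. Over all 10 libraries it was -0.26 without NT7.2.3, -0.18 without NT7.2.4, -0.04 without NT6.306 and -0.00 without NT6.305.

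Taken library by library against the mean of the separate libraries, the rank correlation with coding length was -0.49 and -0.41 in the NT6 libraries and 0.02 and 0.22 in the NT7.2 libraries. Each separate library against the mean of the other 5 gave -0.27 to 0.21. The NT6 libraries thus lay outside the range of the separate libraries, and the NT7.2 libraries lay within it or just above. Over the same 15112 genes without NT7.2, the rank correlation was smaller in size for other measures than for coding length, at -0.25 for exonic length, -0.21 for the span of the gene on the genome and -0.27 for the number of exons. The GC content of the exons had one of -0.30 over all 10 libraries and -0.13 without NT7.2, the reverse order of coding length.

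**Figure D4:**
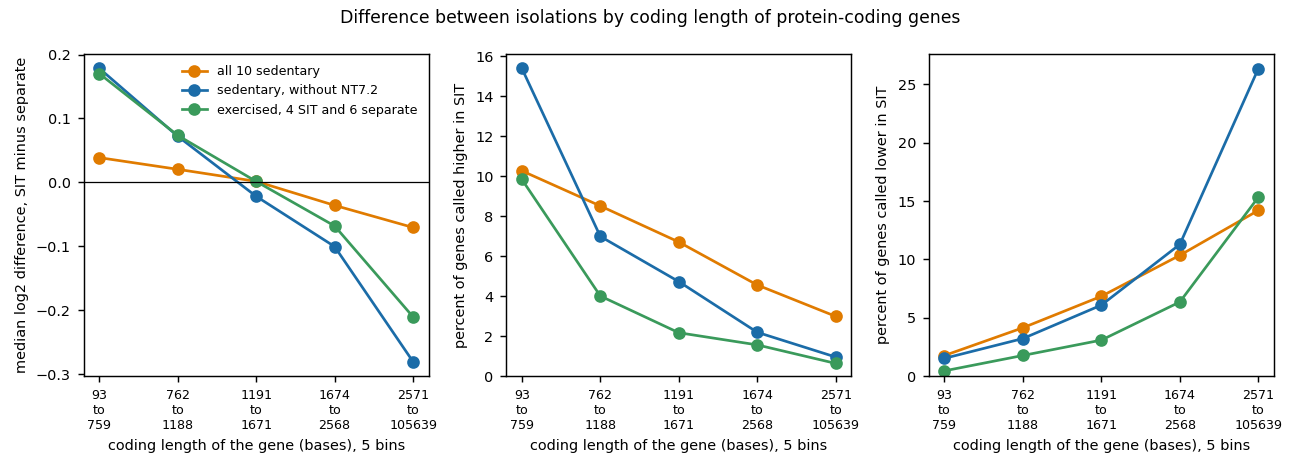
Median log2 difference (left) and percent of genes called higher (middle) and lower (right) in SIT, by bin of coding length (5 bins), for all 10 sedentary libraries, for those without NT7.2, and for the exercised mice. Without NT7.2 the median went from 0.18 to -0.28 and the share called lower from 1.54 to 26.3%, and in exercised mice the median went from 0.17 to -0.21.

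Dendritically localized mRNAs were lower in SIT in part, with and without NT7.2. Of 14, 8 were lower and 0 higher over all 10 libraries (median -0.48), and 9 were lower and 0 higher without NT7.2 (median -0.52). Summed, they reached 12634 to 13587 CPM in NT6, 14355 to 15219 in NT7.2 and 17232 to 22579 in the separate libraries, with no overlap between the isolations. The count was 5 without TG9.1.2 or TG7.3.3, and that of the fit without NT7.2 was 4 without NT6.305. The list has a median coding length of 3003 bases. The 8 members in the longest bin had a median of -0.69 against -0.07 for all genes of that bin, and -0.59 against -0.28 without NT7.2.

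Shank3, a master scaffold of the postsynaptic density (chr15:89499623-89560261), had 143, 131, 266 and 172 CPM in the SIT libraries. The separate libraries had 291, 317 and 411 CPM. All SIT libraries were below all separate ones, at a log2 difference of -0.94 (SE 0.19, adjusted p = 0.00762) and of -1.31 (SE 0.14, adjusted p = 0.000291) without NT7.2. Its relative Shank1 had 389, 337, 889 and 661 CPM against 775, 932 and 1187. There NT7.2.3 lay inside the separate range, and the log2 difference of -0.78 did not pass the test over all 10 libraries (adjusted p = 0.053), whereas that of -1.42 without NT7.2 did (adjusted p = 0.000301).

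Camk2a, the alpha subunit of the calcium/calmodulin kinase of the synapse, had 2726, 2589, 3518 and 3158 CPM against 3276, 4067 and 5144. Its log2 difference was -0.50 (SE 0.13, adjusted p = 0.0239), and -0.67 (SE 0.14, adjusted p = 0.00763) without NT7.2, with the groups overlapping through NT7.2.3. The call over all 10 libraries was lost without TG9.1.2, TG7.3.3 or NT6.306, at adjusted p up to 0.0538. Ppp1r9b, which encodes the spine protein spinophilin, varied little within SIT, at 1924, 1865, 1925 and 1883 CPM. The separate libraries had 2633 to 3409 CPM, and the log2 difference was -0.58 in both fits (adjusted p = 0.00182 and 0.00359). Ddn, the dendrite protein dendrin, had differences of -0.47 (adjusted p = 0.0409) and -0.60 (adjusted p = 0.0217), and over all 10 libraries it lost the call when any library but NT7.2.4 or TG9.1.1 was left out, at adjusted p up to 0.0864. Map2, a dendritic microtubule protein chosen here after its values were seen, was the exception among the members named here: at 435, 405, 1223 and 1088 CPM against 371 to 477, its log2 difference was 0.87 (adjusted p = 0.0575), and -0.04 without NT7.2. Over all 10 libraries it was called higher when NT6.305 or NT6.306 was left out.

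Clustered protocadherins, adhesion molecules that give neurons cell-specific surface identities, were lower in SIT in part. Of 54 tested, 20 were lower and 0 higher over all 10 libraries (median -0.55), and 25 were lower and 0 higher without NT7.2 (median -0.66). Added up, they came to 282 to 308 CPM in NT6, 309 to 406 in NT7.2 and 442 to 488 in the separate libraries. Without NT7.2 the count was 4 without NT6.305 and 16 without NT6.306. The members of the alpha and gamma clusters share constant exons, so that counts for single members are uncertain. The gamma cluster held 17 of the 20 and 17 of the 25 called, out of 22 tested, with medians of -0.86 and -0.81. The alpha cluster had 3 and 6 lower of 11, and the beta cluster, whose members are single-exon genes with no shared exons, had 0 and 2 lower of 21.

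Pcdhgc3 had 36.6, 39.3, 35.3 and 31.9 CPM against 56.1, 63.2 and 70.6, a log2 difference of -0.82 (SE 0.10, adjusted p = 0.00076) and of -0.73 without NT7.2. Pcdhgc5 had 51.9, 59.5, 88.6 and 59.4 CPM against 89.5 to 106, with differences of -0.60 and -0.82. Both genes were below every separate library in every SIT library. Pcdhb17 had 11.9, 11.5, 17.2 and 17.1 CPM against 10.3 to 14.4 and passed no test. Here too the length of the genes moved with the result: 32 of 53 members with a length were in the longest bin, and those 32 had a median of -0.86 against -0.07 for all genes of that bin, and -0.84 against -0.28 without NT7.2.

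Astrocyte markers were lower in SIT in part. Of 15, 8 were lower and 0 higher over all 10 libraries (median -0.47), and 7 were lower and 0 higher without NT7.2 (median -0.50). Their summed level was 6322 to 6489 CPM in NT6, 6495 to 7407 in NT7.2 and 7990 to 10099 in the separate libraries, again with no overlap. Without NT7.2 the count was 2 without NT6.305 or NT6.306 and 11 without TG9.1.1. In pulldown libraries such as these, fewer cells of a type, less RNA per cell and less of their RNA captured or carried along cannot be told apart. The median coding length of the list was 1290 bases, below that of all genes tested.

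Slc1a2, the main astrocytic glutamate transporter, had 2101, 2102, 2971 and 2934 CPM against 2696, 3643 and 4020. Its log2 difference was -0.45 (SE 0.14, adjusted p = 0.0497), and -0.71 (SE 0.13, adjusted p = 0.00421) without NT7.2. Over all 10 libraries the call was kept only without NT7.2.3, NT7.2.4 or TG9.1.1, with adjusted p up to 0.104 without the others. Fgfr3, a growth factor receptor of astrocytes that was chosen here after its values were seen, had 99.3, 79.2, 84.9 and 85.9 CPM against 147 to 180, a difference of -0.87 (SE 0.09, adjusted p = 0.000435). The water channel Aqp4 had 138, 127, 240 and 152 CPM against 188 to 315, and was called only without NT7.2 (-0.76, adjusted p = 0.00954) of these 2 fits. Gfap, the intermediate filament of astrocytes, passed neither (-0.75, adjusted p = 0.126, and -0.68, adjusted p = 0.19), with separate libraries from 1472 to 4029 CPM.

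Among the 10 genes with the largest lower differences over all 10 libraries that did not overlap between the isolations, the members were as follows. Slc7a10, an amino acid transporter that moves D-serine and glycine, had 20.7, 15.2, 13.6 and 11.6 CPM against 34.7, 38.2 and 42.1, a log2 difference of -1.34 (SE 0.15, adjusted p = 0.000588). Grin2c, an NMDA receptor subunit, had 44.7, 34.2, 39.3 and 30.5 CPM against 75.2 to 107 and a difference of -1.30. The lipid transfer protein gene Pltp had a difference of -1.51, at 3.31, 2.29, 4.15 and 5.11 CPM against 7.03 to 13.6, and the planar polarity cadherin Celsr1 one of -1.46. Shc3, a neuronal signalling adaptor, had 18.2, 19.1, 26.0 and 16.1 CPM against 42.2 to 59.9, a difference of -1.37, and it was the most precise of these 3 (SE 0.14, against 0.23 and 0.22). The others were Lgi4 (-1.23), complement C4b (-1.22, adjusted p = 0.0151, and 0.0511 without NT7.2.4), the chromatin protein gene Adnp (-1.22), the RNA sensor Tlr3 (-1.17) and Ccpg1 (-1.13).

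Pltp, Shc3, C4b and Ccpg1 were among the 10 lowest without NT7.2 too, at -1.91, -1.45, -1.64 and -1.44. The others there were fibronectin Fn1 (-2.16), Tm4sf1 (-1.97), the adhesion protein gene Vcl (-1.45), Shank1, the kinase gene Hipk2 (-1.32) and Shank3. Fn1 had 2.54 and 2.22 CPM in NT6 but 16.1 and 16.6 in NT7.2, against 4.04, 7.32 and 20.4 in the separate libraries, so that its call exists only where the NT7.2 libraries are left out. Fn1 and Tm4sf1 were also the least stable there, with adjusted p of 0.0402 and 0.0499 and up to 0.199 and 0.235 with 1 library left out. Ependymal markers were lower in part, 3 of 5 over all 10 libraries (median -1.20, and 1 of 5 without TG9.1.2) and 2 of 5 without NT7.2 (median -0.80, and 0 of 5 without NT6.305 or NT6.306). Foxj1, the regulator of motile cilia, was at 12.2, 9.96, 7.68 and 12.2 CPM against 13 to 23.1, with a difference of -0.65 (adjusted p = 0.0319) and, without NT7.2, -0.57 (adjusted p = 0.0673). It lost the call when NT7.2.3, NT6.306, TG9.1.2, TG9.2.3, TG7.3.3 or TG9.2.4 was left out, at adjusted p up to 0.0671.

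**Figure D5:**
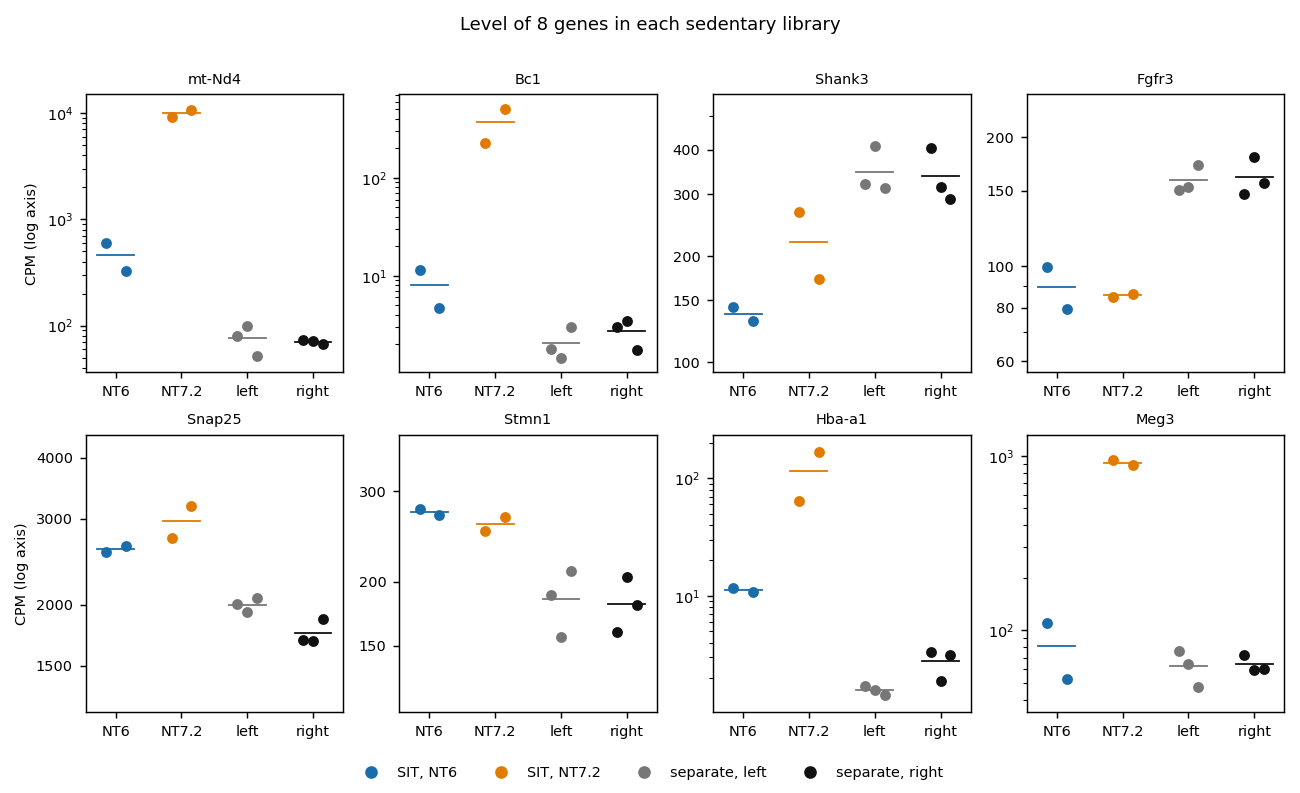
CPM of single genes in each sedentary library on log axes, with the SIT libraries split into NT6 and NT7.2 and the separate libraries into left and right hippocampus. Shank3 was lower in all 4 SIT libraries than in the 6 separate ones (131 to 266 against 291 to 411 CPM), and Snap25 was higher in all 4. The levels of mt-Nd4, Bc1, Hba-a1 and Meg3 were higher in both NT7.2 libraries than in every separate one.

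Cytosolic ribosomal protein genes were in part higher in SIT, by a small amount. Of 81, 43 were higher and 0 lower over all 10 libraries (median 0.35), and 56 were higher and 0 lower without NT7.2 (median 0.40). The count was 27 without NT7.2.4, and in the fit without NT7.2 it was 2 without NT6.305 and 34 without NT6.306. The difference was above 0 in 75 and in 80 of the 81. Summed, they reached 12683 to 14276 CPM in NT6, 11966 to 13250 in NT7.2 and 9269 to 11008 in the separate libraries. They are short, with a median coding length of 456 bases.

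Rpl9, chosen here after its values were seen, had 289, 246, 239 and 274 CPM against 137, 152 and 174, a log2 difference of 0.77 (SE 0.08, adjusted p = 0.000524). Rpl4, one of the most abundant of them, had 576, 513, 493 and 566 CPM against 361, 445 and 480, a difference of 0.31 (SE 0.09, adjusted p = 0.042). Both were above every separate library in each SIT library. The call of Rpl4 over all 10 libraries was kept only without NT7.2.3 or TG7.3.3, with adjusted p up to 0.122 without the others. Rpl10a, the gene whose product is tagged in these mice and whose counts can include the transgene, had 538, 537, 351 and 331 CPM against 431, 468 and 571. The NT7.2 libraries were the only ones of the 10 below that separate range, and neither fit called it (-0.13, adjusted p = 0.622, and 0.16, adjusted p = 0.313).

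Some pan-neuronal messages were higher too. Of 10, 5 were higher and 1 lower in both fits (medians 0.28 and 0.26), although without NT7.2 the higher count was 1 without NT6.305 and 3 without NT6.306. Added up, they came to 7638 to 7752 CPM in NT6, 9052 to 9576 in NT7.2 and 5875 to 6466 in the separate libraries. Snap25, a SNARE protein of the presynapse, had 2566, 2645, 2747 and 3189 CPM against 1689, 1904 and 2067, a log2 difference of 0.57 (SE 0.08, adjusted p = 0.00194) and of 0.48 without NT7.2. The synaptic calcium sensor Syt1 had 1139, 1218, 1737 and 1926 CPM against 795 to 958, with differences of 0.72 and 0.37. Eno2, the neuronal enolase, differed by 0.30 and 0.33. Of 14 growth cone and axon genes 5 were higher and 1 lower over all 10 libraries, and 7 were higher and 2 lower without NT7.2. Stmn2, a tubulin-binding protein of axons, had 422, 433, 432 and 482 CPM against 305 to 342, with differences of 0.45 and 0.41.

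Excitatory neuron markers moved in both directions. Of 9, 1 was higher and 2 were lower over all 10 libraries, and 3 were higher and 1 lower without NT7.2, where 13.6% of all genes were called in either direction. The differences there ran from -0.67, for Camk2a above, to 0.44. Slc17a7 had 3089, 3054, 3101 and 2821 CPM against 3333 to 4305, a log2 difference of -0.28 (adjusted p = 0.0398) and, without NT7.2, of -0.25 (adjusted p = 0.0918). The call over all 10 libraries was kept only without TG9.1.1 or TG9.2.3, with adjusted p up to 0.111 without the others. Nrgn, the calmodulin-binding protein neurogranin, had 4760 and 4822 CPM in NT6, 2748 and 3470 in NT7.2 and 3120 to 4072 in the separate libraries. It was called higher without NT7.2 (0.41, adjusted p = 0.00964) and not over all 10 libraries (0.12, adjusted p = 0.646). Of the subfield lists, dentate granule cell genes had 0 and 1 called of 9, CA1 genes 3 and 1 lower of 6, and CA2 and CA3 genes 1 and 1 lower of 7. With 12.5 and 13.6% of all genes called in either direction, 1 call in a list of 7 or 9 is near that share. Prox1, the transcription factor of granule cells, had differences of 0.31 and 0.18 that passed neither test.

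Oligodendrocyte genes were higher in part, 6 of 14 over all 10 libraries (median 0.48) and 5 of 14 without NT7.2 (median 0.27), although their summed levels overlapped (3804 to 5743 CPM in SIT and 2595 to 4239 in the separate libraries). Without NT7.2 the count was 0 without NT6.305 or NT6.306 and 3 without TG7.3.4. Mbp, myelin basic protein, differed by 0.03 and -0.04. The share of all genes called higher was 6.15% over all 10 libraries and 5.44% without NT7.2. Red cell genes were higher in SIT, 5 of 5 over all 10 libraries and 4 of 5 without NT7.2, with medians of 4.88 and 2.11, and 2 of 5 in that second fit without NT6.305, NT6.306, TG9.1.2 or TG9.2.4. The alpha globin gene Hba-a1, which has a near-identical copy, had 11.8, 10.8, 63.8 and 169 CPM against 1.43, 1.79 and 3.31, with log2 differences of 4.88 (adjusted p = 0.00158) and 2.39 (adjusted p = 0.000426).

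Further non-neuronal and interneuron classes were higher over all 10 libraries, with far larger differences in the NT7.2 than in the NT6 libraries. Of 13 microglial genes tested, 11 were higher over all 10 libraries (median 4.66) and, without NT7.2, 1 was higher and 1 lower (median 0.87), of which the higher one was lost without any of 5 libraries and the lower one without NT6.305 or NT6.306. Their summed level was 13.5 to 14.7 CPM in NT6, 317 to 331 in NT7.2 and 12.2 to 15.7 in the separate libraries, so that NT6 lay within the separate range. Cx3cr1 had 0.764, 1.59, 39.5 and 47.0 CPM against 0.42 to 0.734, with differences of 5.21 (adjusted p = 0.00435) and 0.98 (adjusted p = 0.122). C1qc, a complement subunit made by microglia, had 0.478, 1.05, 32.4 and 32.1 CPM against 0.121 to 0.331, with differences of 6.27 and 1.84 (adjusted p = 0.0565). Laptm5, a lysosomal membrane protein of blood-derived and microglial cells, kept its call without NT7.2, at 1.59, 2.54, 36.3 and 33.4 CPM against 0.283 to 0.587 and with differences of 5.39 and 2.24. It is not on the microglial list. It met the mean of 5 CPM for naming only through the NT7.2 libraries, with means of 2.06 CPM in NT6 and 0.437 in the separate libraries.

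Of 14 interneuron genes tested, 11 were higher over all 10 libraries (median 4.01) and 4 without NT7.2 (median 0.97, with 5.44% of all genes higher), where 0 were called without NT6.305 or NT6.306. Gad2 had 10.4, 9.02, 192 and 184 CPM against 2.36, 3.74 and 7.46, with differences of 4.53 (adjusted p = 0.00397) and 1.19 (adjusted p = 0.0268). Gad1, the other GABA-making enzyme, had 50.9, 50.4, 282 and 275 CPM against 31.2 to 47.2, with differences of 2.11 (adjusted p = 0.00948) and 0.42 (adjusted p = 0.0677). For both enzymes the NT6 libraries were above every separate library, by a far smaller margin than the NT7.2 libraries. The summed level of the list was 138 to 143 CPM in NT6, 1109 to 1147 in NT7.2 and 89.7 to 173 in the separate libraries. The neuropeptide Sst was at 7.15, 8.77, 224 and 277 CPM against 3.03 to 8.34.

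Meningeal fibroblast genes were higher in 7 of 11 over all 10 libraries and in 0 of 11 without NT7.2 (medians 2.37 and 0.67), and in 3 without NT7.2.4 alone. Ptgds, a prostaglandin synthase of the meninges, had 50.8, 33.9, 296 and 387 CPM against 25.7 to 42.4. Endothelial genes had 0 higher of 12 in both fits and 1 lower without NT7.2. Mural cell genes had 1 higher and 1 lower of 7, and 2 lower without NT7.2. Among all genes, 12.5% were called in either direction over all 10 libraries and 13.6% without NT7.2. In lists as short as these, 1 gene can move the share across that of all genes. Choroid plexus genes had 0 called of 9 in both fits, and their summed level ran from 35.2 to 1302 CPM within the separate libraries alone.

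RNAs that are retained in the nucleus were in part higher in SIT, and this rested on the NT7.2 libraries. Of 12, 5 were higher over all 10 libraries (median 1.52) and 0 without NT7.2 (median -0.08), where 1, Firre, was lower (-0.76, adjusted p = 0.0366). Firre lost that call in 6 of the 8 fits with 1 library left out, at adjusted p up to 0.234, and over all 10 libraries its difference was 1.69 (adjusted p = 0.0704). In the fit without NT7.2, leaving out NT6.306 gave 2 higher, Meg3 and Miat. Over all 10 libraries the count was 2 without NT7.2.4, 3 without NT7.2.3 or any separate library but TG7.3.3, 8 without NT6.305 and 9 without NT6.306. Summed, they reached 670 to 714 CPM in NT6, 2256 to 2323 in NT7.2 and 642 to 726 in the separate libraries, so that the NT6 libraries lay within the separate range. Malat1, a long noncoding RNA of nuclear speckles, had 19.9, 14.5, 115 and 127 CPM against 10.3, 18.4 and 29.8. Its log2 difference was 1.88 (SE 0.54, adjusted p = 0.0385) and, without NT7.2, -0.11 (SE 0.32, adjusted p = 0.859). The first call was kept only without NT6.305, NT6.306 or TG7.3.3, with adjusted p up to 0.153 without the others.

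Meg3, an imprinted noncoding RNA of neurons, had 110, 52.7, 948 and 886 CPM against 47.7 to 76.4, with differences of 2.98 (adjusted p = 0.00916) and 0.36 (adjusted p = 0.299). Rian, from the same imprinted region, had differences of 2.10 and 0.14, Miat of 2.75 and 0.49 and Snhg14 of 1.65 and -0.07. The 5 called were thus those 4 and Malat1. Rian lost the call without NT7.2.4 (adjusted p = 0.0596), and Snhg14 kept it only without NT6.305 or NT6.306. Neat1, the RNA of paraspeckles, had 7.24, 4.47, 22.7 and 26.0 CPM against 5.59 to 7.92 and did not pass (1.20, adjusted p = 0.0635). The 2 most abundant members besides Meg3 hardly differed: Peg13 had 337, 366, 344 and 398 CPM against 338 to 388, and Tug1 had 131, 140, 153 and 153 against 135 to 162. Among long noncoding RNAs as a whole, 71 of 1811 were higher and 20 lower over all 10 libraries, and 25 of 2135 were higher and 50 lower without NT7.2, in each case a smaller share than that of all genes called (6.15 and 6.35%, then 5.44 and 8.13%).

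The remaining classes are read against the share of all genes called in either direction, 12.5% over all 10 libraries and 13.6% without NT7.2. Below that share in both fits were the genes of the ER translocon and signal peptide machinery, which serve membrane-bound ribosomes (0 of 18 called, then 1 higher), and chaperone and ER stress genes (1 and then 2 higher of 15). So were cholesterol synthesis genes (0 called, then 2 lower of 17), replication-dependent histones (1 higher of 28, then 1 higher of 33) and C2H2 zinc finger genes (24 higher and 12 lower of 339, then 7 and 15 of 342). Above it in both fits were secreted peptide genes (5 higher and 2 lower, then 2 and 2, of 19) and glycolysis genes (2 higher and 1 lower, then 4 and 1, of 17). Oligodendrocyte precursor genes (1 higher and 1 lower of 8, then none), striatal neuron genes (2 higher, then 1 lower, of 8) and progenitor and immature neuron genes (2 and then 1 higher of 10) were above it over all 10 libraries and below it without NT7.2. The reverse held for ribosomal RNA-like loci (0 called, then 2 higher and 1 lower, of 5) and for immediate early genes, which respond within minutes to activity (2 and then 4 higher of 20). Most of these lists are short, so that 1 or 2 genes move the share across that of all genes. Egr1, an immediate early transcription factor, had 192, 218, 99.6 and 173 CPM against 112 to 179 and was called without NT7.2 alone of the 2 fits (0.45, adjusted p = 0.0393). That call was lost without NT6.305, NT6.306, TG9.2.3, TG7.3.4 or TG9.2.4, at adjusted p up to 0.263.

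Few genes were present under 1 isolation and missing under the other. With at least 10 counts in every SIT library and at most 3 in every separate library there was 1 gene, Gm44242, and the reverse held for 0 genes. With the NT6 libraries as the SIT group there were 5 genes gained and 11 lost, all with a mean below 1 CPM. Of the genes lost 8 were protein-coding, among them Kdelr3, a receptor that returns proteins to the ER, and Musk, a receptor kinase of the neuromuscular junction. The classes above thus differed by amount rather than by presence.

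The 10 libraries of exercised mice, 4 SIT and 6 separate, were used as libraries outside the sedentary groups, with none left out. There 593 of 17943 genes were higher in SIT (3.3%) and 821 lower (4.58%), or 7.88% in either direction. All 13 mitochondrial messages were higher (median 2.28), 9 of 14 dendritic mRNAs were lower (median -0.56), as were 17 of 53 protocadherins (median -0.66) and 5 of 15 astrocyte genes (median -0.57). Of 81 ribosomal protein genes 1 was higher (median 0.18), and of the microglial, interneuron, red cell and nuclear-retained lists 0 genes were called. The rank correlation with coding length was -0.39 over 14700 genes, and the median log2 difference went from 0.17 in the shortest bin to -0.21 in the longest.

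Single genes of the exercised mice lay near or far from the sedentary mice without NT7.2. The log2 difference was 2.56 for mt-Nd4 (adjusted p = 0.000356), -1.23 for Shank3 (adjusted p = 0.000356), -0.66 for Camk2a (adjusted p = 0.00568), -0.70 for Slc1a2 (adjusted p = 0.00921) and 0.32 for Snap25 (adjusted p = 0.0108). These 5 lay within 0.2 of the sedentary value without NT7.2. Others lay further off and did not pass the test in exercised mice: Bc1 (1.15, adjusted p = 0.124), Hba-a1 (0.97 against 2.39), Laptm5 (0.87 against 2.24), Fn1 (-0.77 against -2.16), Gfap (-0.06 against -0.68), Meg3 (-0.14 against 0.36) and Egr1 (0.84 against 0.45). Immediate early genes had a median of 1.09 in exercised mice, with 1 of 20 called higher, against 0.26 in sedentary mice without NT7.2. The difference between sedentary and exercised mice was tested as an interaction in edgeR, which called 0 of 19275 genes in all 20 libraries (1875 at an unadjusted p under 0.05, lowest adjusted p 0.166) and 0 of 20412 without NT7.2 (944, lowest adjusted p 0.648). A fit of all 20 libraries with exercise as a term had 1704 of 17834 genes higher (9.55%) and 1915 lower (10.7%), or 20.3% in either direction. In exercised mice numbered TG7, the one number series with both isolations, 2 SIT and 2 separate libraries gave 12 genes higher (0.0672%) and 1 lower (0.0056%), or 0.0728% in either direction, with 9 of the 13 mitochondrial messages among the 12. mt-Nd4 differed there by 3.05 (adjusted p = 0.000211), Shank3 by -1.27 (adjusted p = 0.0518) and Slc1a2 by -0.55 (adjusted p = 0.378).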

How the data were processed

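Polyadenylated TRAP RNA of Emx1-NuTRAP hippocampus was sequenced and the authors deposited raw counts per gene: per the submitters' notes and the study's methods, reads were checked with FastQC 0.11.9, aligned to GRCm38 with STAR 2.7.3a, freed of duplicate reads with Picard 1.87 and counted by strand with GenomicAlignments in R 4.1.0. The values used are these deposited counts of 55335 genes, with 45895097 to 60179728 counts a library, and intervals from them cover counting error only. Libraries were mapped to groups by the isolation, side and exercise labels together with the mouse numbers that the study's materials pair with them. Removing duplicates without molecular identifiers lowers the counts of abundant and short genes most. A table of the wildtype mice with 24 columns that could not be mapped to single samples was not used here.

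SIT and separate libraries were compared with edgeR 4.0.16 (R 4.3.3, limma 3.58.1) by the quasi-likelihood test on counts, with TMM scaling, the default filter on low counts by group, no covariate and Benjamini-Hochberg adjustment over all genes tested. A gene was called at an adjusted p under 0.05, and every adjusted p in the text is from this test. The SE of a log2 difference is its size divided by the square root of F. CPM were taken after TMM scaling. Principal components used the log2 CPM, with 0.5 added, of the 2000 most variable genes. Replicates differed beyond counting error (chi-square per gene 18.9 to 423 over 12 pairs), and no labels say that p-values cover more than the spread between mice. The pairs of an NT6 with an NT7.2 library were at 405 to 423, and all other pairs at 18.9 to 57.7. Coding length is the coding sequence of the longest isoform in the GENCODE annotation of GRCm38, which held 55154 of the 55335 gene identifiers. The test was tried on simulated counts with known changes before use. With 200 genes changed and a dispersion of 0.02 for every gene, 93% were recovered over all 10 libraries and 77% without NT7.2. Of the calls, 4.62% and 7.23% were false. The simulated SIT libraries did not differ among themselves as NT6 and NT7.2 did, so these rates need not hold for the real counts.

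The members, the 37 gene lists and the alternatives were chosen with earlier results of these data known, so no list is independent evidence. The genes named are, for each of the 2 fits, the 10 highest and 10 lowest log2 differences among called genes whose mean was 5 CPM or more, no overlap between the groups and no clone name, then in each list the 3 most abundant members and the first 2 markers of each cell type, and all mitochondrial-genome and nuclear-retained RNAs. These are 178 genes, of which the text prints a selection, and exceptions are marked in the text. The mean was taken over all 10 libraries, so that Bc1, C1qc and Laptm5 met it through the SIT libraries where they were high. For the 10 highest and 10 lowest, the absence of overlap was set by the choice. No set test was run. DESeq2 1.42.0 and other settings were tried as alternatives (24 in all).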

Additional observations from a re-analysis of the deposited data

Results flagged for a closer look

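In 206 groups of values (genes named and summed levels of lists, each in the 4 SIT and in the 6 separate libraries) 1 library lay far from the others in 13, where chance gives about 1 in 20. In the separate library of mouse TG9.1.1 Gfap was 4029 CPM, Aqp4 315 CPM, Tm4sf1 27.5 CPM and Syt1 795 CPM, the summed level of interneuron genes was 173 CPM and that of cholesterol synthesis genes 1133 CPM. Gfap lay between 1472 and 1938 CPM in the other 5 separate libraries and Syt1 between 921 and 958 CPM. In the separate library of TG7.3.3 the summed level of endothelial genes was 53.3 CPM and that of mural cell genes 44.1 CPM, against 11.2 to 16.9 and 19.7 to 24.8 CPM in the other separate libraries. Foxj1 was 23.1 CPM in TG9.1.2 and Firre 2.6 CPM in TG9.2.4. Among the SIT libraries Tm4sf1 was 11.3 CPM and the summed level of astrocyte genes 7407 CPM in NT7.2.3, and Slc17a7 was 2821 CPM in NT7.2.4.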

How the results depend on the processing

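Size factors by relative log expression (1170 higher and 1103 lower), no filter on low counts (932 and 1059 of 29035), a mean of at least 1 CPM (1270 and 1172 of 14284), mitochondrial and ribosomal RNA-like genes left out (1133 and 1129) and DESeq2 (1668 and 1542, of which 1110 and 1141 of the edgeR calls) gave counts near those of edgeR over all 10 libraries or within 1.5 times. With 1 library left out there were 499 to 1481 higher and 664 to 1299 lower over all 10 libraries, and 112 to 1434 and 320 to 1983 without NT7.2. Calls over all 10 libraries then ran from 13 to 13 for mitochondrial messages, 27 to 48 for ribosomal proteins, 5 to 8 lower and 0 to 1 higher for dendritic mRNAs, 14 to 24 for protocadherins, 6 to 8 for astrocytes, 8 to 13 for microglia, 10 to 13 for interneurons and 2 to 9 for nuclear-retained RNAs. Without NT7.2 microglia had 1, interneurons 4 and nuclear-retained RNAs 0 higher.

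Other choices of libraries, which differ in the number and the kind of libraries they hold, moved the counts, and the cause was not tested. Against right hippocampi only, 1 gene was higher and 1 lower, with 0 in each of those 8 classes. Against left hippocampi only, 65 were higher and 155 lower, with 4 ribosomal proteins, 3 dendritic mRNAs, 2 protocadherins, 3 astrocyte genes and 0 mitochondrial, microglial, interneuron or nuclear-retained genes. NT6 against right hippocampi only gave 176 and 437, with 13, 5, 5 and 3 of the first 4 of these classes, 0 microglial, 4 interneuron and 0 nuclear-retained. Exercised mice numbered TG7 gave 12 and 1, with 0 in each class but the mitochondrial one. All 20 libraries with exercise as a term gave 1704 and 1915, with 3 nuclear-retained RNAs. Exercised mice, 4 against 6, gave 593 higher, with 1 ribosomal protein, 5 astrocyte genes and 0 microglial, interneuron or nuclear-retained genes. The study's unadjusted p and fold threshold gave 9 nuclear-retained RNAs, and the share of all genes that pass it is not given here. It is looser: with size factors by relative log expression, 4896 of 18086 genes had an unadjusted p under 0.05, before any fold limit. The 9 are therefore not comparable with the counts at an adjusted p. Asking for at least 2-fold gave 289 and 98, with 0 ribosomal proteins, dendritic mRNAs and astrocyte genes and 6 protocadherins.

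Among genes called over all 10 libraries, log2 differences turned sign for Malat1 (-0.11 without NT7.2, -0.18 for NT6 against right hippocampi, -0.80 in TG7 and -0.23 in all exercised mice), Snhg14 (-0.0725, -0.0772, -0.62 and -0.47), Meg3 (-0.14 in TG7 and -0.14 in all exercised mice), Rian (-0.11 and -0.0512), Rpl4 (-0.0552 in TG7) and Ptgds (-0.21 in TG7). Among those not called there, Firre (-0.76, called), Map2 (-0.04) and Rpl10a (0.16) had the other sign without NT7.2; other such turns are not listed. No paired analysis was possible because the columns carry mouse numbers and no replicate numbers, and each mouse gave 1 library.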
